A study of Homo sapiens with 23 samples.

Results

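The LSD1+8a list of SH-SY5Y cells at day 3 of BDNF held 518 peaks that no peak of the 4 other lists touched. These 518 LSD1+8a-only regions were chosen by list membership. Peaks of all 5 lists that overlapped by at least 1 bp were merged into 32188 regions, and a region was kept where only the LSD1+8a list contributed. The 518 regions made up 1.61% of all regions and held 15.3% of the 3378 LSD1+8a peaks, with 1 peak in each. All 518 are described, and no filter on low values was applied. Because list membership chose them, their absence from the other lists is no finding.

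LSD1 (KDM1A) removes methyl groups from lysines of histone H3 and works in corepressor complexes with CoREST and histone deacetylases. LSD1+8a is a splice form of the same enzyme that carries the short exon E8a and is found in neurons. The title of the series links it to demethylation of lysine 9 of H3, and the series design names supervillin (SVIL), an actin-binding protein, as its cofactor. The regions below are those where the LSD1+8a antibody gave a listed peak and the LSD1 and SVIL antibodies did not.

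The study profiled 23 samples of SH-SY5Y, a neuroblastoma line of human origin that matures toward neurons under retinoic acid and BDNF. The cells of the 5 lists carried a control or an LSD1+8a shRNA from an infection, and the labels describe retinoic acid (10 µM, 4 days) before BDNF (50 ng/mL, 3 days). The LSD1+8a list comes from control shRNA cells at day 3 (B3), made with a polyclonal antibody raised by the laboratory. The 4 other lists are LSD1 in control shRNA cells at day 3, LSD1 in LSD1+8a shRNA cells at day 0 (B0), LSD1 in control shRNA cells at day 0, and SVIL in control shRNA cells at day 3. Each list is 1 library of 1 cell line, and without replicate libraries no comparison of conditions could be tested. The LSD1+8a libraries from LSD1+8a shRNA cells were not analysed here, so loss of these peaks on knockdown was not examined.

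The lists differ in length, from 1452 SVIL peaks and 3378 LSD1+8a peaks to 20748 LSD1 peaks of control cells at day 3. Tags inside peaks summed to 149464 for LSD1+8a and 1266603 for LSD1 at day 3. Library depths are unknown. A list gives no value where no peak passed its threshold, so the LSD1 and SVIL signal at the 518 regions is unknown and may lie just under it. Positions are in hg19. They carry no gene names and no sequence is shown, because no genome or annotation of that build was used here. Intervals in parentheses are exact 95% intervals that cover counting error only. Peaks of 1 library are not replicates of a condition.

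The LSD1+8a-only peaks were mostly weaker by score and by tags, but not by median fold enrichment. Their median score, the authors' value without a stated unit, was 59.2, against 70.5 for the 2860 other LSD1+8a peaks. The quartiles of the score were 53.1 and 71.2 for LSD1+8a-only peaks, and 58.1 and 95.1 for the others. The median number of tags, the reads counted in a peak, was 27 (25 to 28) in LSD1+8a-only peaks and 40 (39 to 41) in the others. They were also shorter, with a median length of 695.5 bp (666 to 717) against 849 bp (839 to 860). The authors' fold enrichment had a median of 15.5 (15.01 to 15.85) in LSD1+8a-only peaks and 15.1 (14.9 to 15.4) in the others. Its quartiles were 12.68 and 18.31 in LSD1+8a-only peaks, and 11.97 and 19.65 in the others. The ranges of all 4 measures overlapped widely between both kinds of peak. Score, tags, fold and length all come from the library whose list defined the regions, so these values are a description. Together the 518 regions covered 0.398 Mb (13.2% of the length of the list) and held 16811 tags (11.2% of its tags).

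**Figure D1:**
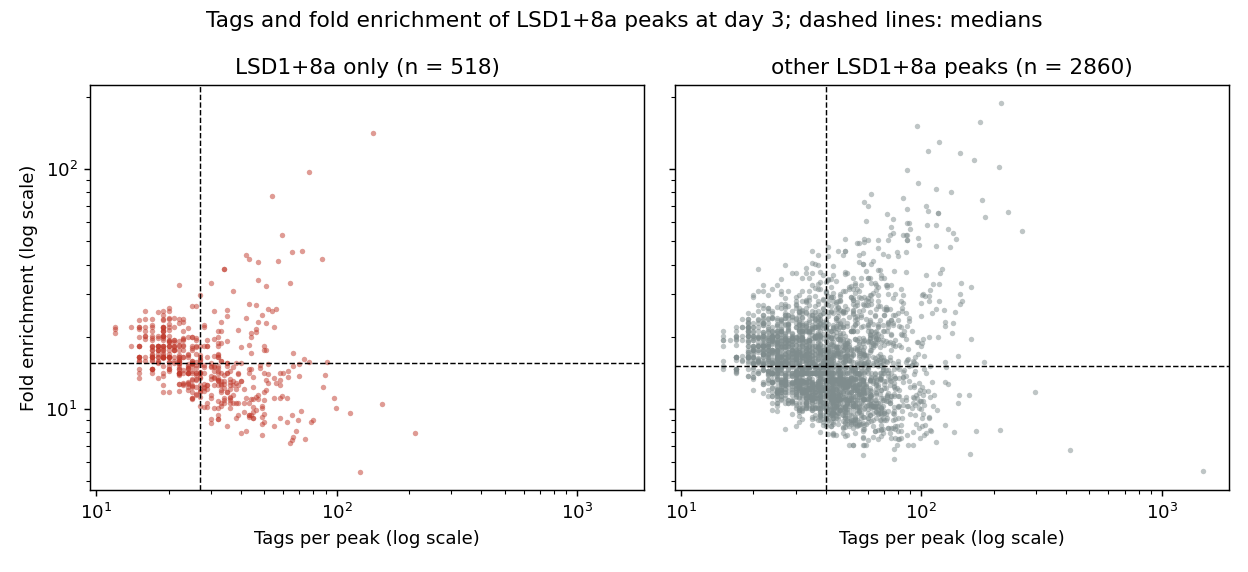
Fold enrichment (vertical, log scale) against tags per peak (horizontal, log scale) for the 518 LSD1+8a-only peaks (left) and the 2860 other LSD1+8a peaks (right), 1 point per peak. Dashed lines are medians, at 27 tags and a fold of 15.5 on the left and at 40 tags and 15.1 on the right.

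The share of LSD1+8a peaks in no other list was highest among peaks with few tags. It was 48.5% (43.1 to 53.99) in the lowest decile of the list by tags (12 to 22 tags) and 5.62% (3.42 to 8.64) in the highest (71 to 1488 tags). By score it was 32.8% (27.9 to 38.1) in the lowest decile and 7.10% (4.60 to 10.4) in the highest. By fold enrichment the extremes were closer together, with 13.02% (9.62 to 17.1) in the lowest decile, 22.2% (17.9 to 27.001) in the sixth and 10.1% (7.07 to 13.8) in the highest. The regions were therefore gathered at low tag numbers. By fold, only the sixth decile (15.19 to 16.47) had an interval wholly above the 15.3% of the whole list. Only the highest decile had one wholly below it, so LSD1+8a-only peaks were less frequent at the highest folds. Among peaks with at most 27 tags, LSD1+8a-only and other peaks came closer in score and length. Their median scores were 54.7 and 57.1, and their median lengths 562.5 bp and 612 bp. Their median folds did not come closer, at 16.47 (16.47 to 17.61) and 17.15 (16.57 to 17.61), with the LSD1+8a-only peaks now the lower.

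**Figure D2:**
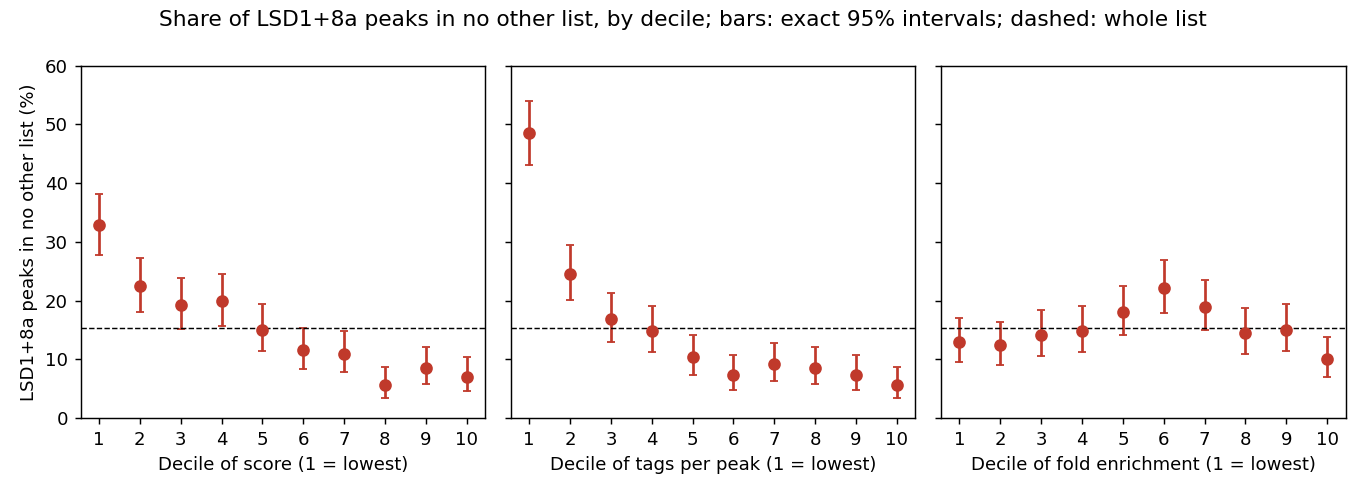
Share of LSD1+8a peaks found in no other list (vertical, %) by decile of the list ordered by score, by tags per peak and by fold enrichment (horizontal, 1 is the lowest). Points carry exact 95% intervals, the dashed line is the 15.3% of the whole list, and the lowest decile by tags stands highest at 48.5%.

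A minority of the regions was strong. Of the 100 highest scoring LSD1+8a peaks, 8 were LSD1+8a-only (8.00%, 3.52 to 15.2), and of the highest 1000, 72 were (7.20%, 5.68 to 8.98). Of the 518, 125 (24.1%, 20.5 to 28.1) reached 71.7, the lowest score in the SVIL list, and 1381 of the 2860 others did (48.3%, 46.4 to 50.1). The other lists started at 50.0, as did that of LSD1+8a.

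The strongest region by far lay on chromosome X (149106330 to 149107072). It held 142 tags in 743 bp at a fold enrichment of 142 and a score of 830, the fourth highest score of the LSD1+8a list. The nearest peak of any other list lay 147225 bp away and was an LSD1 peak of day 3 with 28 tags. This strong LSD1+8a peak thus had no listed LSD1 or SVIL peak within 100 kb. The second region by score, on chromosome 19 (1591983 to 1592819), had 77 tags, a fold of 96.99 and a score of 369. The third, on chromosome 1 (1822261 to 1822810), had 54 tags, a fold of 77.5 and a score of 266. Both were compact, at 837 and 550 bp, and their nearest neighbours in other lists lay 12514 and 17576 bp away.

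The other 7 of the 10 highest scoring regions had scores between 184 and 256. They lay on chromosome 1 (110526980 to 110527849 with 87 tags, and 1509778 to 1510680 with 72 tags), chromosome 10 (98346122 to 98347189, 64 tags), chromosome 8 (2075187 to 2075911, 57 tags), chromosome 2 (131850466 to 131851401 with 59 tags, and 206950127 to 206950891 with 65 tags) and chromosome 4 (3076088 to 3076733, 47 tags). Their folds were between 33.45 and 53.1, and all but 1 were under 1000 bp long. Of these 7, the second chromosome 2 region lay close to another list, 433 bp from an LSD1 peak of control cells at day 0. The chromosome 8 region was remote from its own list too, with 8621245 bp to the nearest other LSD1+8a peak that was shared. Ranking by fold brought in regions on chromosome 17 (42143718 to 42144412, fold 43.7, 42 tags) and chromosome 16 (67595513 to 67596363, fold 42.1, 43 tags) in place of those on chromosomes 10 and 4.

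The regions with the most tags were of another shape, broad and of low fold. The largest, on chromosome 7 (16436322 to 16440300), had 212 tags spread over 3979 bp, a fold of 7.87 and a score of 107. The second, on chromosome 17 (63965418 to 63967901), had 155 tags over 2484 bp at a fold of 10.4. A region near the end of chromosome 7 (158118612 to 158120563) had 125 tags over 1952 bp and the lowest fold of all 518, 5.44, with a score of only 54.8. Of the 10 regions with most tags, the chromosome X region was the only one that was also among the 10 of highest score or fold. The other 9 were 1108 to 3979 bp long, with folds of 5.44 to 15.6. They include regions on chromosome 7 (135399034 to 135401044, 114 tags, and 98176946 to 98178612, 88 tags), chromosome 17 (45266038 to 45267145, 99 tags, and 48101369 to 48102786, 91 tags) and chromosome 1 (22904486 to 22906287, 89 tags). A region on chromosome 11 (47787950 to 47789919, 66 tags, fold 15.1) was among the 5 longest without being among these.

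Broad peaks were nonetheless less frequent among LSD1+8a-only regions than in the rest of the list. Of the 518, 97 were at least 1000 bp long (18.7%, 15.5 to 22.4), and of the 2860 others, 873 were (30.5%, 28.8 to 32.2). In both kinds, the long peaks had more tags and a lower fold. Long LSD1+8a-only peaks had medians of 50 tags and a fold of 11.1, and the 421 shorter ones 24 tags and 16.4. Long peaks among the others had medians of 58 tags and a fold of 12.3, and shorter ones 34 tags and 16.3. How the input behaved at the broad regions was not examined, because no input file was analysed here. At the other end of the scale, the 5 lowest scoring regions had scores of 50.0 to 50.1 and 15 to 20 tags. They began at 798990 on chromosome 3, 41793816 on chromosome 21, 89671428 on chromosome 15, 47319084 on chromosome 17 and 133976080 on chromosome 8.

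Few LSD1+8a peaks only touched the edge of a peak in another list. The regions nearest to exclusion lay 11 bp (chromosome 11, 118661047 to 118661698, 26 tags) and 24 bp (chromosome 18, 12947111 to 12947741, 23 tags) from LSD1 peaks of control cells at day 0. The next lay 88 bp (chromosome 1, 155176639 to 155177717) and 114 bp (chromosome 16, 68573626 to 68574206) from LSD1 peaks of knockdown cells, and 143 bp (chromosome 12, 103490515 to 103490835) from one of control cells at day 3. Just outside the rule, the smallest overlap that removed an LSD1+8a peak was 27 bp (chromosome 14, 23834129 to 23835241, 37 tags), and the next were 32, 35, 56 and 87 bp. Such edge contacts were rare among the other LSD1+8a peaks, since their largest overlap with a peak of another list had a median of 794 bp and was 200 bp or less in 14 of them. Partial overlaps were more frequent, since asking for a reciprocal overlap of 50% gave 732 LSD1+8a-only regions in place of 518.

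Most LSD1+8a-only regions stood well clear of other lists. The distance from a region to the nearest peak of another list had a median of 21310.5 bp (18601 to 24736). For the other LSD1+8a peaks, measured to the nearest other-list peak beyond their own region, it was 19864.5 bp (18780 to 20930). The intervals of these medians overlapped. Within 10 kb, 165 of the 518 (31.9%, 27.9 to 36.1) had such a neighbour, against 908 of the 2860 others (31.7%, 30.0 to 33.5). Within 100 kb, 477 (92.1%, 89.4 to 94.3) and 2677 (93.6%, 92.6 to 94.5) did. Closer in, 41 LSD1+8a-only regions had a neighbour within 1 kb (7.92%, 5.74 to 10.6), and 170 of the others did (5.94%, 5.11 to 6.87). Within 0.3 kb there were 18 (3.47%, 2.07 to 5.44) and 43 (1.504%, 1.09 to 2.02), with intervals that did not overlap. For the others, a peak of their own region was not counted as a neighbour. This removes near peaks from their count only, so the shares at short distances are not like for like. No difference between both kinds of peak is read from them.

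**Figure D3:**
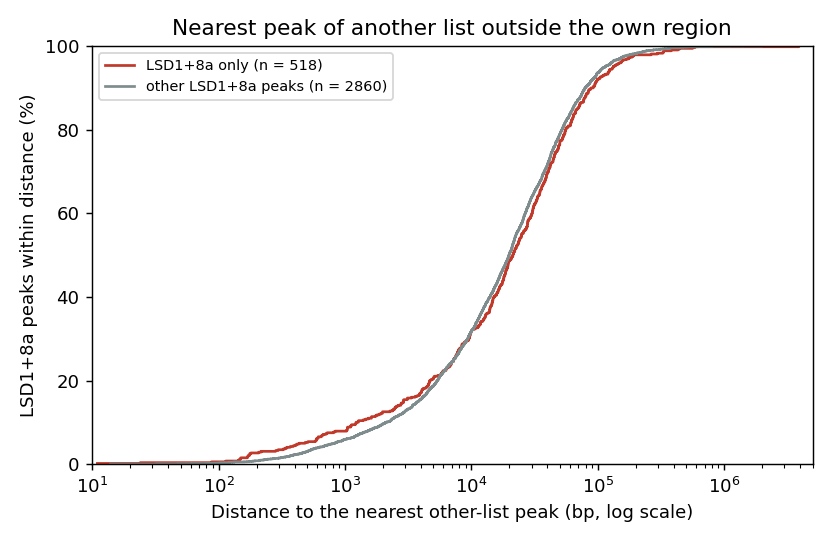
Share of LSD1+8a peaks (vertical, %) whose nearest peak of another list, outside their own region, lies within the distance on the horizontal axis (bp, log scale), for the 518 LSD1+8a-only and the 2860 other LSD1+8a peaks. The medians are 21310.5 bp and 19864.5 bp, and within 0.3 kb the shares are 3.47% and 1.504%. Leaving out the own region removes near peaks only for the other LSD1+8a peaks, so shares at short distances are not like for like.

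The nearest peak belonged to LSD1 of control cells at day 3 for 296 regions (57.1%), to LSD1 of control cells at day 0 for 153 (29.5%), to LSD1 of knockdown cells for 64 (12.4%) and to SVIL for 5 (0.965%). This order follows the lengths of the lists. The nearest SVIL peak lay at a median of 587508 bp (483394 to 678297) from LSD1+8a-only regions and 554114 bp (525456 to 589726) from the others, so this distance was not particular to the LSD1+8a-only regions. The closest SVIL peak to any of the 518 was 1526 bp away. The 41 regions with a neighbour within 1 kb resembled the rest, with medians of 27 tags and a fold of 15.7 against 26 tags and 15.5 in the other 477. For 24 of the 41 that neighbour was an LSD1 peak of day 3, for 13 one of control cells at day 0 and for 4 one of knockdown cells. The 24 day 3 neighbours had a median of 55 tags, against 50 in their whole list, and the 13 neighbours in control cells at day 0 had 22 against 26. The 4 neighbours in knockdown cells had 39.5 against 28, with a median score of 186 against 80.2, the largest departure of the 3 lists but from the fewest peaks.

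A few regions lay in stretches with hardly any peak of the other lists. The most remote, on chromosome X (143749848 to 143750509, 33 tags, fold 13.1), was 3905125 bp from the next peak of another list. It was followed by regions on chromosome 5 (7868918 to 7869564, 34 tags, fold 38.4) at 587212 bp, chromosome 6 (96025410 to 96026100, 25 tags) at 563688 bp, chromosome 1 (3097546 to 3098706, 50 tags) at 442073 bp and chromosome X (55620121 to 55620761, 23 tags) at 431933 bp. The chromosome 5 region had the highest fold of these 5.

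The regions were found on all autosomes and on chromosome X. Chromosome 8 held 38 of the 518 (7.34%, 5.24 to 9.93) and 104 of the 2860 other LSD1+8a peaks (3.64%, 2.98 to 4.39), beside 5.21% of the LSD1 peaks of day 3. It was the only one of 23 chromosomes on which the intervals of both LSD1+8a shares did not overlap, and no p-value was computed. Of all LSD1+8a peaks on chromosome 8, 26.8% (19.7 to 34.8) were in no other list, against 15.3% of the whole list. In the upper 50% of the LSD1+8a list by score, chromosome 8 held 4.73% (1.92 to 9.50) of the LSD1+8a-only regions. That interval covers both the 7.34% of all 518 and the 3.64% of all other LSD1+8a peaks. It is too wide to show whether the separation held in that part of the list. Chromosome 21 had the highest portion of its LSD1+8a peaks in no other list, 30.3% (15.6 to 48.7), but from only 33 peaks. On the gene-dense chromosome 19 the portion was the lowest, at 9.55% (5.66 to 14.9). That chromosome held 17 of the LSD1+8a-only regions (3.28%, 1.92 to 5.20), 161 of the other LSD1+8a peaks (5.63%) and 2.33% of the LSD1 peaks of day 3. Chromosomes 1, 7 and 17 held the most regions, 63, 51 and 39 (12.2%, 9.85% and 7.53%). They held 10.8%, 7.55% and 6.15% of the other LSD1+8a peaks, with intervals that overlapped on each.

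**Figure D4:**
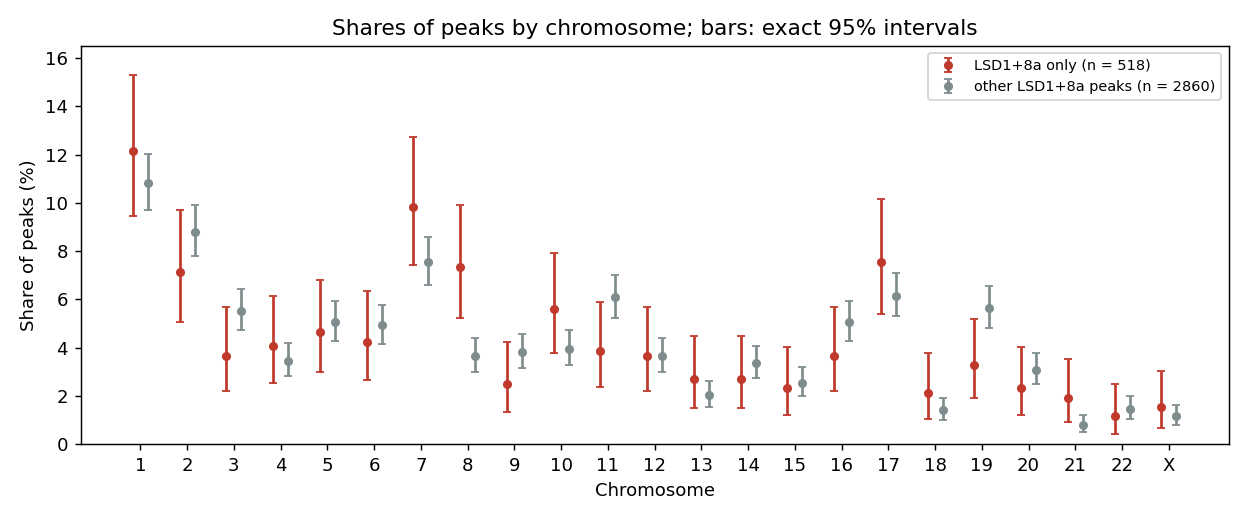
Share of peaks on each chromosome (vertical, %) for the 518 LSD1+8a-only and the 2860 other LSD1+8a peaks, with exact 95% intervals. On chromosome 8 the shares are 7.34% and 3.64%, with intervals that do not overlap.

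LSD1+8a-only regions lay near chromosome ends more often than the peaks of any other group. Of the 518, 105 (20.3%, 16.9 to 24.0) were within 5 Mb of the first or last peak of their chromosome. For the acrocentric chromosomes 13, 14, 15, 21 and 22 only the far end was counted. The share was 14.2% (12.9 to 15.5) in the other LSD1+8a peaks, so the LSD1+8a list as a whole was richer in such peaks than the LSD1 lists. Among peaks found in 1 list alone, it was 6.78% (6.31 to 7.27) for LSD1 of control cells at day 3, 11.7% (10.4 to 13.2) for LSD1 of knockdown cells, 9.63% (8.81 to 10.499) for LSD1 of control cells at day 0 and 6.68% (4.52 to 9.46) for SVIL. Shared peaks of those 4 lists had shares of 8.32%, 11.5%, 9.55% and 6.78%, in the same order, so unshared peaks there did not stand above shared ones by more than their intervals. This measure was chosen after the data were seen.

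The difference at the ends was clear among regions with more than 27 tags, while at 27 tags or fewer the intervals overlapped. By score it stood in both the upper and the lower part of the list. By length it was clear only among long peaks. Of the 242 LSD1+8a-only regions with more than 27 tags, 64 were within 5 Mb of an end (26.4%, 21.002 to 32.5), against 331 of 2317 other LSD1+8a peaks with more than 27 tags (14.3%, 12.9 to 15.8). Of the 276 with at most 27 tags, 41 were (14.9%, 10.9 to 19.6), against 74 of 543 others (13.6%, 10.9 to 16.8). In the upper 50% of the list by score the shares were 25.7% (18.9 to 33.5) of LSD1+8a-only regions and 15.7% (13.9 to 17.6) of the others. In the lower 50% they were 18.1% (14.32 to 22.4) and 12.4% (10.6 to 14.26), with intervals that only just did not overlap. The 105 regions near ends had a median score of 62.8 and 32 tags, and the 413 farther in had 58.4 and 25 tags. Chromosome 7 contributed most, with 14 regions, followed by chromosome 2 with 11 and chromosomes 4 and 17 with 8 each. The other LSD1+8a peaks near ends numbered 23, 26, 16 and 41 on chromosomes 7, 2, 4 and 17. They were most frequent on chromosomes 16 (51) and 19 (45), where 6 LSD1+8a-only regions each lay near ends. Without chromosome 7 the share of LSD1+8a-only regions near ends was 19.5% (15.99 to 23.4), against 14.4% (13.1 to 15.8) of the other LSD1+8a peaks.

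**Figure D5:**
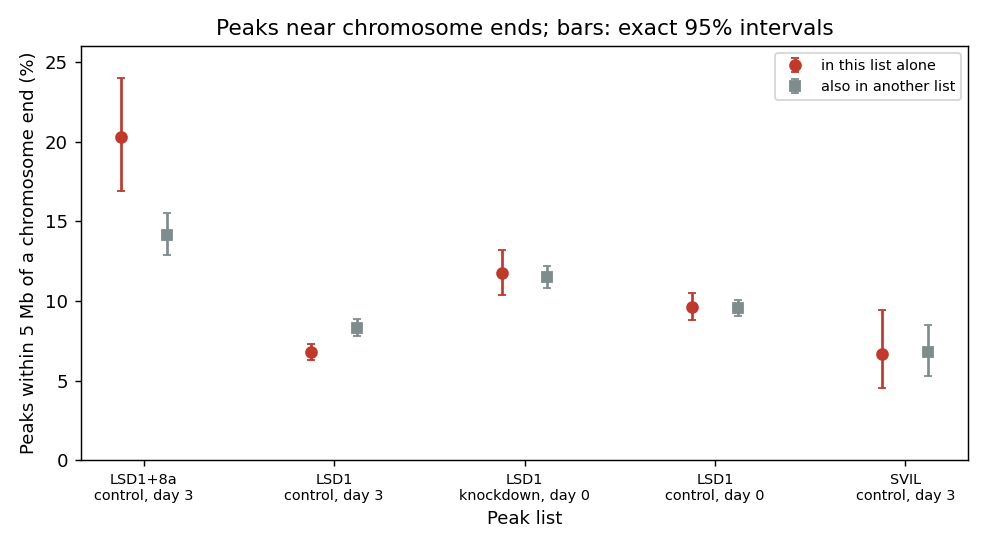
Share of peaks within 5 Mb of a chromosome end (vertical, %) in each of the 5 lists, for peaks found in that list alone (circles) and peaks also found in another list (squares), with exact 95% intervals. LSD1+8a-only peaks stand highest at 20.3%, followed by the other LSD1+8a peaks at 14.2%.

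The regions were mostly scattered, with a median of 1268640 bp from an LSD1+8a-only region to the nearest other one on either side. They fell into 24 runs of at least 2 regions with gaps of at most 100 kb, which held 53 of the 518. The run with the most regions, on chromosome 11 (126152243 to 126321715), had 4 regions with 22 to 70 tags. No other LSD1+8a peak lay in its 169 kb, which held 1 LSD1 peak of day 3 and 3 LSD1 peaks of control cells at day 0. A run of 3 regions on chromosome 12 (111554899 to 111611096) had no peak of any other list within its span of 56.2 kb. Just past the end of this run, an LSD1 peak of day 3 lay 594 bp from the last region. The 3 regions were weak, with 15 to 21 tags and scores of 50.8 to 53.4.

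The far end of chromosome 7 held several broad regions. It held runs of 3 at 157829929 to 157898816 (30 to 68 tags) and at 158041115 to 158120563 (71 to 125 tags), none with another LSD1+8a peak inside. In the second run the regions were 1473, 1766 and 1952 bp long, with folds of 9.75, 11.05 and 5.44. With gaps of up to 1000 kb allowed, both belong to a stretch of 11 LSD1+8a-only regions from 155454759 to 158853101, which had 5 other LSD1+8a peaks, 31 LSD1 peaks of day 3, 19 of knockdown cells, 21 of control cells at day 0 and 5 of SVIL. Elsewhere such stretches had at most 5 regions, on chromosomes 17, 2 and 1.

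Being in no other list went with a low rank in each LSD1 list, but not in that of SVIL. The portion of a list in no other list was 15.3% for LSD1+8a, 52.0% for LSD1 of control cells at day 3, 19.6% for LSD1 of knockdown cells, 28.4% for LSD1 of control cells at day 0 and 29.9% for SVIL. Unshared LSD1+8a peaks had a median place at 31.6% of the list from the bottom by score. That place was at 39.99% for LSD1 at day 3, 26.8% for LSD1 of knockdown cells, 29.6% for LSD1 of control cells at day 0 and 52.8% for SVIL. Next to the 518 regions stood 7 LSD1+8a peaks that overlapped a SVIL peak and no LSD1 peak, with 19 to 41 tags and folds of 11.3 to 25.6. A further 838 LSD1+8a peaks lay in regions with LSD1 at day 0 but not at day 3, with a median of 43 tags, and 2015 in regions with LSD1 at day 3, with a median of 39. Both were above the 27 of the LSD1+8a-only peaks, while the median folds, 15.5 in LSD1+8a-only peaks, 15.5 with LSD1 at day 0 alone and 14.96 with LSD1 at day 3, were close together.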

How the data were processed

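The files used are 5 deposited peak lists, 1 per library. The tools CASAVA and Bowtie 1.0.0 and the builds hg19 and mm9 are named per the submitters' processing notes. Positions were taken as hg19, the human build. The sources used here name neither caller and threshold nor the input behind each list. Per the labels' protocols, fragments of 300 to 600 bp were selected and reads of 50 bp sequenced, which limits how finely a position can be placed. The deposited tags were used as counts per peak and were not scaled here. Whether they had been scaled or filtered before is not stated in the sources used. Fold enrichment, also deposited, is a ratio to a background that the file headers do not name. A further deposited column has a damaged name and was used as a score with no unit. Start, end, length and summit are positions in bp in the deposited files.

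Peaks were merged with a script (Python 3.11.15, pandas 2.3.3, scipy 1.17.1), which was tested on simulated data. Distances are bases between peak edges. Shares have exact (Clopper-Pearson) 95% intervals, and medians have intervals from order statistics. Library depths are unknown, and no test was made, since there is 1 library per group. Named regions are the 10 highest by score, tags and fold, the 5 lowest by score, the 5 longest, the 5 nearest to and the 5 farthest from another list, the 5 smallest overlaps that kept a peak out, and the 3 longest runs with ties. The members and these rules were chosen with earlier results of these data known. Alternatives were other overlap rules, score cuts, lists left out, distances and run gaps. Planned annotation and sequence contents were not run, because no hg19 genome or annotation was used here.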

Additional observations from a re-analysis of the deposited data

How the results depend on the processing

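The number of LSD1+8a-only regions, 518, was 473 when peaks at most 1 kb apart were joined, 732 with a reciprocal overlap of 50%, 389 with the upper 50% of each list by score and 525 without the SVIL list. It was 148 with the upper 50% of the LSD1+8a list alone and 1015 without the LSD1 list of control cells at day 3, so the count depends most on these. The share of the LSD1+8a list was 15.3%, and became 14.1% with 1 kb joining, 21.7% with reciprocal overlap, 23.03% with the upper 50% of each list and 8.76% with the upper 50% of the LSD1+8a list alone. Among peaks with at most 27 tags, LSD1+8a-only and other peaks had median scores of 54.7 and 57.1, folds of 16.47 and 17.15, tags of 20 and 24, and lengths of 562.5 and 612 bp. The lowest decile of the list had 32.8% of its peaks in no other list by score, 13.02% by fold and 48.5% by tags. Chromosome 8 held 7.34% of the regions, and 4.73% in the upper 50% by score. Runs numbered 24, and 12 with gaps up to 25 kb and 87 with gaps up to 1000 kb, as the gap sets. The share near chromosome ends was 20.3% within 5 Mb, 11.8% within 2 Mb, 28.96% within 10 Mb, 25.7% in the upper 50% by score, and 14.9% and 26.4% at most and above 27 tags. Of 60 alternative values, 36 stayed within 1.5 times a count or within the interval of the value. This tally is no measure of robustness, since some settings fixed their outcome. Leaving out chromosome Y, which held no LSD1+8a peak, could change nothing, and a cut at 27 tags had to lower the median of tags. Where no cause follows from the setting itself, the cause was not tested. No paired analysis was possible because each group is 1 library. Unknown depth limits every absence from a list.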

Other observations

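The authors' fold enrichment took a few values again and again, and 3 of the values held by at least 8 LSD1+8a-only peaks were more than 3 times as frequent among them as among the other LSD1+8a peaks. A fold of exactly 16.47 was held by 24 of the 518 LSD1+8a-only peaks (4.63%) and by 13 of the 2860 other LSD1+8a peaks (0.455%). A fold of 18.30 was held by 22 (4.25%) and 15 (0.524%), and a fold of 14.64 by 8 and 8. These values are 1.83 apart. Together they were held by 54 LSD1+8a-only peaks (10.4%) and 36 others (1.26%), and among peaks with at most 27 tags by 18.8% and 5.89%. The most frequent fold of the list, 14.08, was held by 24 (4.63%) and 115 (4.02%), so repetition as such was common to both. Smaller differences in the same direction were seen at other repeated folds. Among these, 20.13 (1.74% and 0.874%) and 21.96 (1.93% and 0.664%) continue the same step of 1.83. These values were picked after they were seen, and what sets them was not tested.

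Of the 1 Mb windows with an LSD1+8a peak, 1119 held no LSD1+8a-only region, 374 held 1, 45 held 2, 10 held 3 and 6 held 4. All 4 LSD1+8a peaks were in no other list in the window that starts at 126 Mb on chromosome 11 and in that at 157 Mb on chromosome 7. It was 4 of 5 in the windows that start at 33 Mb on chromosome 21, 81 Mb on chromosome 8 and 63 Mb on chromosome 17. These windows were picked from those with the most LSD1+8a-only regions, and over the whole list the share was 15.3%. The chromosome 8 window also held 20 LSD1 peaks of day 3, and the chromosome 21 window held 14. That the LSD1+8a-only regions touch none of these follows from the rule that chose them.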
